A study of Homo sapiens with 8 samples.

Results

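Immunoglobulin variable segments are the germline gene segments that encode the antigen-binding ends of antibody chains. They were measured here as 257 gene symbols that start with IGHV (heavy chain), IGKV (kappa light chain) or IGLV (lambda light chain), out of 33616 gene symbols in the deposited table. A segment was taken where the probe annotation of an array row gave exactly 1 such symbol, and where a symbol had several rows the row with the highest mean over the 8 arrays was used. The choice used no difference between cell lines or ligands.

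The study hybridised total RNA of 2 human B-cell lymphoma lines to 8 single-colour Affymetrix arrays, and the values are log2 signals after RMA (robust multi-array average). The 4 groups were HBL-1 with APRIL, HBL-1 with EDA, BJAB with APRIL and BJAB with EDA, with 2 arrays each, and every culture had its ligand at 1 µg/ml for 6 h. APRIL is a cytokine related to tumour necrosis factor that acts on B cells through the receptors BCMA and TACI, and EDA (ectodysplasin A), a related cytokine, served as the control per the labels. No array of cells without ligand was analysed here, and the labels do not say whether replicates were separate cultures, so the p-values measure the spread between these arrays, which may be technical.

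Each B cell assembles its heavy-chain gene by joining 1 variable, 1 diversity and 1 joining segment on a chromosome, and its light-chain gene by joining 1 variable and 1 joining segment at the kappa or the lambda locus. The promoter of the joined variable segment comes under the control of the locus enhancers, and a cell line grown out from 1 lymphoma clone carries the rearrangements of that clone. Segments fall into subgroups by sequence, so that IGHV3 segments resemble each other more than IGHV4 segments, and transcripts of a used segment can bind array probes of its close relatives.

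By their symbols, 33 of the 257 members are orphons, copies that lie outside the 3 loci and cannot contribute to an antibody. Of the others, RefSeq lists 94 as variable segments of the 3 loci and 130 as pseudogenes. The heavy-chain set had 105 members, with 89 of the 127 RefSeq segments of the locus on chromosome 14 and 16 orphons. The kappa set had 88 members, with 72 of the 76 RefSeq segments of the locus on chromosome 2 and 16 orphons. The lambda set had 64 members, with 63 of the 74 RefSeq segments of the locus on chromosome 22 and 1 orphon. The remaining segments were not analysed here.

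Each line derives from 1 lymphoma, so the 4 arrays of a line do not stand for different tumours. All 6 measured B-cell markers, among them the B-cell receptor subunits CD79A and CD79B and the transcription factor PAX5, were above background on every array of both lines. Background was set for each array as the 95th percentile of its 23 background control rows, which lay between 7.80 and 8.25 log2. None of 7 myeloid markers was above it on all 4 arrays of either line, and CD68 and ITGAM, a lysosomal and a surface protein of myeloid cells, stayed below it on average in both. Of 7 T-cell and natural killer cell markers, only CD3G, a subunit of the T-cell receptor complex, was above it on all 4 arrays of a line, with 5.12 ± 0.44 in HBL-1 and 11.42 ± 0.26 in BJAB (mean ± SD, n = 4 arrays each). Of 6 epithelial and fibroblast markers the collagen genes COL1A1 and COL1A2 were above it on all 4 arrays of both lines, with 10.05 and 9.89 on average in HBL-1 and 9.19 and 8.16 in BJAB, and the proteoglycan DCN was above it in BJAB, with 6.02 in HBL-1 and 12.60 in BJAB. Replicate 2 of HBL-1 with APRIL stood apart from the other arrays, with the highest background level (8.25) and the highest median over all genes. That median was 5.74 log2, against 5.60 and 5.59 on the HBL-1 arrays with EDA.

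Most variable segments gave no signal above background. On all 8 arrays 222 of the 257 members (86.4%) stayed at or below the background level, against 67.4% of all genes. In HBL-1 8 members were above background on all 4 arrays, and in BJAB 10 were, with IGHV4-39 and the pseudogene IGHV3-30-2 above it in both lines. For the dim members a difference between arrays was a difference between values at or below background.

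HBL-1 and BJAB expressed different variable segments. HBL-1 was higher for the kappa segment IGKV3-20 with its duplicate IGKV3D-20 and for the heavy-chain segments IGHV4-28 and IGHV4-55, by 7.38 to 11.43 log2. BJAB was higher for the heavy-chain segments IGHV3-33 and IGHV3-30 and for the kappa segment IGKV1D-39, where HBL-1 minus BJAB was between -6.21 and -5.82 log2. Of the 257 members 70 (27.2%) differed between the lines in limma (adjusted p under 0.05), 26 higher in HBL-1 and 44 lower. Among all 33616 genes 24.2% differed, 10.3% higher and 13.9% lower in HBL-1, so the share of segments that differed was near that of all genes. By size, 7 of the 257 members differed by at least 5 log2, a larger share than the 0.729% of all genes. A difference of at least 2 log2 was seen in 19 of the 257, also a larger share than the 4.55% of all genes. The median difference of the members was -0.05 log2 and that of all genes 0.01 log2. In 76 members the 4 HBL-1 and the 4 BJAB arrays did not overlap, against 25.9% of all genes. In bulk RNA, fewer cells of a type and less RNA per cell cannot be told apart, which bears on every difference between the lines.

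**Figure D1:**
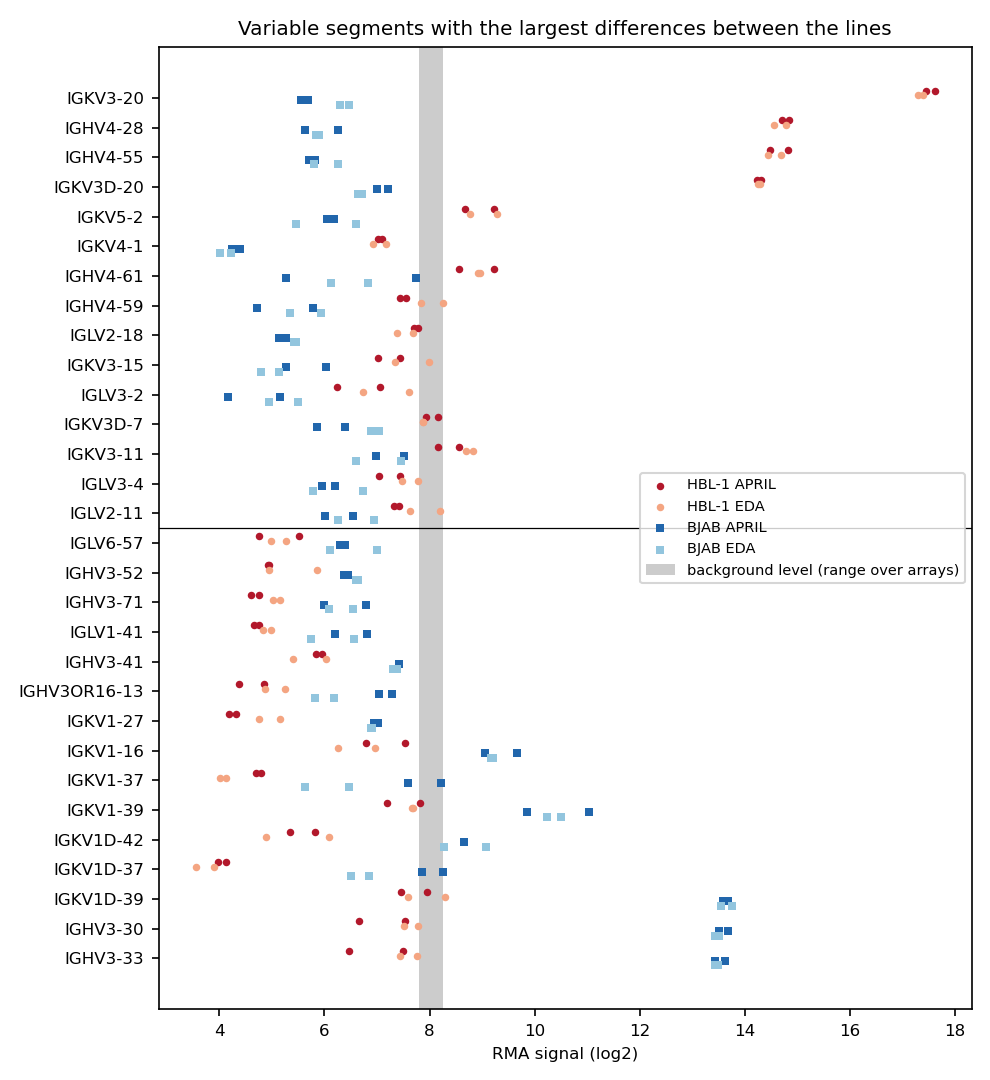
RMA signal (log2) of the 15 segments with the largest positive and the 15 with the largest negative difference between HBL-1 and BJAB among those that passed with lines that did not overlap, with 1 point per array; the grey band is the range of background levels over the 8 arrays. IGKV3-20, IGHV4-28, IGHV4-55 and IGKV3D-20 lay at 14.24 or higher on all 4 HBL-1 arrays and below background on all 4 BJAB arrays, and IGHV3-33, IGHV3-30 and IGKV1D-39 lay at 8.29 or lower on the HBL-1 arrays and at 13.43 or higher on the BJAB arrays.

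Among heavy-chain segments, IGHV4-28 gave 14.70 and 14.85 log2 on the HBL-1 arrays with APRIL and 14.78 and 14.55 on those with EDA. On the BJAB arrays it gave 5.63 and 6.27 with APRIL and 5.84 and 5.89 with EDA. All 4 HBL-1 arrays were high and all 4 BJAB arrays were below background, with no overlap. The difference was 8.81 log2 (SE 0.17, limma adjusted p = 3.19e-10). Since BJAB had no signal above background, the fold is a bound, taken against the lowest signal above the background level on each BJAB array: HBL-1 was at least 119.2-fold higher.

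IGHV4-55, which RefSeq lists as a pseudogene, gave 14.83 and 14.48 log2 with APRIL and 14.69 and 14.44 with EDA in HBL-1. The BJAB arrays had 5.70 and 5.81 with APRIL and 6.26 and 5.80 with EDA. The pattern over the arrays was the same as that of IGHV4-28, and HBL-1 was at least 110.4-fold higher (difference 8.72, SE 0.17, limma adjusted p = 3.19e-10). These 2 segments belong to 1 subgroup, and which of its segments gave the signal is uncertain from these rows. The other 3 measured IGHV4 segments were also higher in HBL-1: IGHV4-61 by 2.42 log2 (SE 0.44, at least 2.134-fold), IGHV4-59 by 2.33 (SE 0.25) and IGHV4-39 by 0.85 (SE 0.23). IGHV4-39 was above background on all 8 arrays, with 10.38 log2 on average in HBL-1 and 9.53 in BJAB. Thus 5 of 5 IGHV4 members passed, all higher in HBL-1, where 10.3% of all genes were called higher. IGHV4-59 was above background on 1 HBL-1 array and on no BJAB array. Several segments of the subgroup were not analysed here.

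IGHV3-33 ran the other way. It gave 7.50 and 6.47 log2 with APRIL and 7.44 and 7.75 with EDA in HBL-1. In BJAB it gave 13.44 and 13.63 with APRIL and 13.49 and 13.43 with EDA. No HBL-1 array was above background, every BJAB array was, and BJAB was at least 45.22-fold higher (HBL-1 minus BJAB -6.21, SE 0.22, limma adjusted p = 1.24e-08). IGHV3-30, a close relative of IGHV3-33, gave 7.53 and 6.65 log2 with APRIL and 7.52 and 7.79 with EDA in HBL-1. BJAB had 13.52 and 13.68 with APRIL and 13.44 and 13.51 with EDA, and BJAB was at least 46.4-fold higher (-6.16, SE 0.20, limma adjusted p = 6.43e-09). The 2 segments are so alike in sequence that these rows may not separate them.

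Of the 43 IGHV3 members 19 were lower in HBL-1 and none was higher, with a median of -0.39 log2. Past the leading pair the sizes dropped: the orphon IGHV3OR16-13 differed by -1.75 log2 (SE 0.18; -0.94 under EDA alone) and the pseudogenes IGHV3-41, IGHV3-71 and IGHV3-52 by -1.57, -1.47 and -1.35. None of these 4 was above background on all 4 arrays of either line. The IGHV1 subgroup, with 17 members, had 1 call, IGHV1-69 at -0.59 log2. The pseudogene subgroup IGHVII had 1 of 16 higher and IGHVIII 1 of 14 lower. Over the heavy chain 6 of 105 members were higher in HBL-1 and 22 were lower (26.7% called, against 24.2% of all genes).

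Among kappa segments, IGKV3-20 had the largest difference of the 257 members. It gave 17.44 and 17.62 log2 with APRIL and 17.29 and 17.40 with EDA in HBL-1. In BJAB it gave 5.69 and 5.55 with APRIL and 6.47 and 6.30 with EDA. The lines were far apart on every array, with a difference of 11.43 log2 (SE 0.14, limma adjusted p = 4e-11), and HBL-1 was at least 784-fold higher. The kappa locus holds a proximal and an inverted distal copy of a set of segments, the distal ones marked D, and IGKV3D-20 is the distal copy of IGKV3-20. It gave 14.30 and 14.24 log2 with APRIL and 14.29 and 14.25 with EDA in HBL-1. BJAB had 7.0 and 7.21 with APRIL and 6.64 and 6.71 with EDA, all below background, and HBL-1 was at least 87.26-fold higher (7.38, SE 0.14, limma adjusted p = 3.16e-10).

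In BJAB the leading kappa segment was IGKV1D-39, the distal copy of IGKV1-39. It gave 7.95 and 7.45 log2 with APRIL and 7.59 and 8.29 with EDA in HBL-1. In BJAB it gave 13.59 and 13.68 with APRIL and 13.75 and 13.54 with EDA. The lines did not overlap, although 2 of the 4 HBL-1 arrays were just above background, and the difference was -5.82 log2 (SE 0.20, limma adjusted p = 8.32e-09). The proximal copy IGKV1-39 gave 7.81 and 7.18 log2 with APRIL and 7.67 and 7.69 with EDA in HBL-1. BJAB had 11.03 and 9.86 with APRIL and 10.50 and 10.24 with EDA, and BJAB was at least 5.309-fold higher (-2.82, SE 0.25, limma adjusted p = 1.45e-05).

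Calls among the other kappa members also fell in 1 direction within IGKV1 and within IGKV3, and most of the other kappa members did not pass. Of the 37 IGKV1 members 16 were lower in HBL-1 and none was higher (median -0.54 log2), with IGKV1D-37 at -3.48, IGKV1D-42 at -3.13, IGKV1-37 at -2.57, IGKV1-16 at -2.39 and IGKV1-27 at -2.34. A second row of IGKV1-27 differed by -0.59, the widest spread between rows of any member, and the mean of its rows by -1.46. The 13 IGKV3 members had 8 calls, all of them higher in HBL-1 (median 0.71), with IGKV3-15 at 2.15 and IGKV3-11 and IGKV3D-7 at 1.42 each. Under EDA alone IGKV3D-7 differed by 0.92. None of the 32 IGKV2 members passed (range -0.48 to 0.46). Over the kappa chain 11 of 88 members were higher in HBL-1 and 16 were lower (30.7% called, against 24.2% of all genes).

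Copies of a kappa segment moved alike where both passed. Of 29 pairs with both the proximal and the distal copy measured, both passed in the same direction in 6, both passed in opposite directions in 0, 1 copy passed in 3 and neither in 20. The 6 pairs were IGKV3-20, IGKV1-39, IGKV1-37, IGKV1-35, IGKV1-22 and IGKV3-31 with their distal copies. Among all genes 24.2% were called. A second row of IGKV3-31 differed by 0.35 log2 (limma unadjusted p = 0.101), so the call of that segment depends on the row used. The copies are nearly identical, so which copy gave the signal is uncertain.

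**Figure D2:**
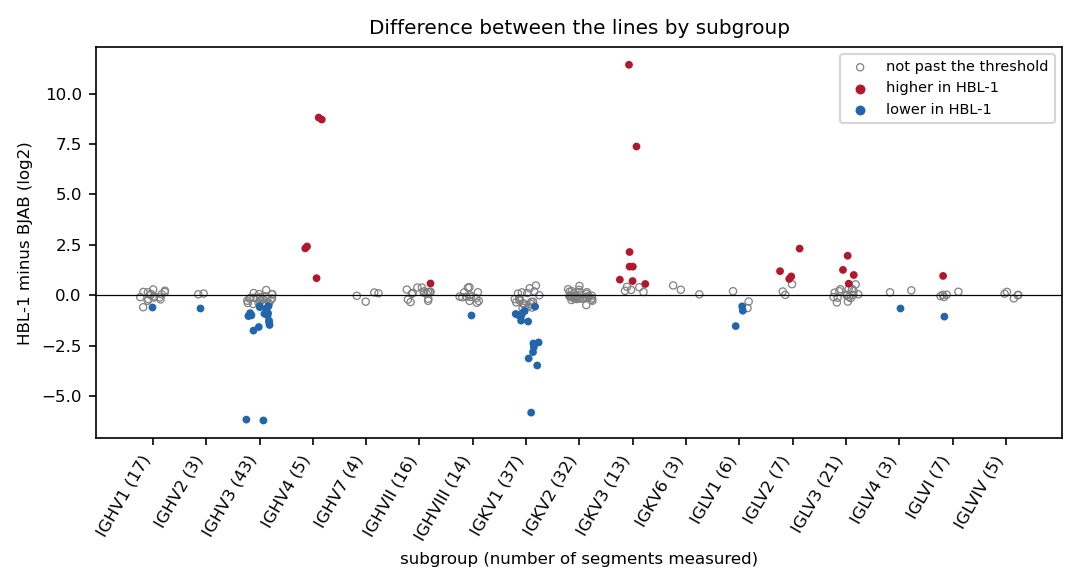
HBL-1 minus BJAB (log2) of each measured segment in the subgroups with 3 or more members, with 1 point per segment, filled where limma's adjusted p was under 0.05. All 5 IGHV4 points and 8 of 13 IGKV3 points were called higher in HBL-1, 19 of 43 IGHV3 and 16 of 37 IGKV1 points were called lower, and no IGKV2 point was called. Among all genes 10.3% were called higher and 13.9% lower.

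IGHV3, IGHV4, IGKV1 and IGKV3, picked here because they hold the 7 largest differences, had 98 members, of which 48 passed and 0 passed against the direction of their subgroup. The other 159 members had 22 calls (13.8%), the largest of 2.91 log2 in size. Binding of the leading transcripts to probes of related segments was not tested, so members of a subgroup may not be independent measurements. By type, 35 of 94 variable segments passed (37.2%, against 24.2% of all genes), 15 higher and 20 lower in HBL-1. Of the 130 pseudogenes 29 passed (22.3%), 10 higher and 19 lower, and of the 33 orphons 6 passed (18.2%), 1 higher and 5 lower.

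Signal level bears on these counts. Of the 70 members that passed, the brighter line was above background on all 4 of its arrays in 13, 7 of them higher in HBL-1 and 6 lower. In 42 no array was above background. The 13 were IGKV3-20, IGKV3D-20, IGHV4-28, IGHV4-55, IGHV4-61, IGHV4-39 and IGKV5-2 for HBL-1, and IGHV3-33, IGHV3-30, IGKV1D-39, IGKV1-39, IGKV1-16 and IGKV1D-42 for BJAB.

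None of the 64 lambda members was above background on all 4 arrays of either line. A row on chromosome 22 that names 7 symbols, with lambda variable, joining and constant genes among them, was above background on all 8 arrays, with 13.62 ± 0.16 log2 in HBL-1 and 13.65 ± 0.23 in BJAB (SD, n = 4 arrays each), and cannot be assigned to 1 segment. Of the 64 lambda members 9 were higher in HBL-1 and 6 were lower (23.4% called, against 24.2% of all genes), with a median of 0.03 log2. IGLV2-18 led, with 7.71 and 7.78 log2 with APRIL and 7.68 and 7.37 with EDA in HBL-1. In BJAB it gave 5.14 and 5.26 with APRIL and 5.46 and 5.42 with EDA. The lines did not overlap, but all 8 values were below background (2.32, SE 0.15, limma adjusted p = 9.78e-07). The pseudogene IGLV3-2 followed at 1.96, then IGLV3-4 at 1.26 and IGLV2-11 at 1.20. Among those lower in HBL-1 were the pseudogene IGLV1-41 at -1.53 and IGLV6-57 at -1.31. Subgroups IGLV2 (4 of 7 higher, median 0.81), IGLV3 (4 of 21 higher) and IGLV1 (3 of 6 lower) each passed in 1 direction.

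Segments were also set in their RefSeq order, with place 1 nearest to the joining segments. The lambda calls split along the locus: the 9 higher in HBL-1 lay at places 2 to 35 of 74, where 31 members were measured, none was lower and the median was 0.25 log2. The 6 lower ones lay at places 41 to 73. Past place 35, 32 members were measured, none was higher and the median was -0.04. This boundary was chosen after the values were seen, and no test was made of it. Of the 64 lambda members 63 were at or below background on all 8 arrays. In the kappa locus the 3 segments nearest to the joining segments were all higher in HBL-1, IGKV4-1 by 2.83 log2 (SE 0.15), IGKV5-2 by 2.91 (SE 0.26, at least 2.239-fold) and the pseudogene IGKV7-3 by 1.05 (SE 0.22). Each of them is the measured member of a subgroup of its own. IGKV5-2 was above background on all 4 HBL-1 arrays, while IGKV4-1 and IGKV7-3 were above background on no array of either line. The leading segments did not adjoin: IGKV3-20 stood at place 20, IGKV1D-39 at 42 and IGKV1D-37 at 44 of 76 in the kappa locus, and IGHV4-28 at 42, IGHV3-30 at 45, IGHV3-33 at 51 and IGHV4-55 at 87 of 127 in the heavy-chain locus.

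**Figure D3:**
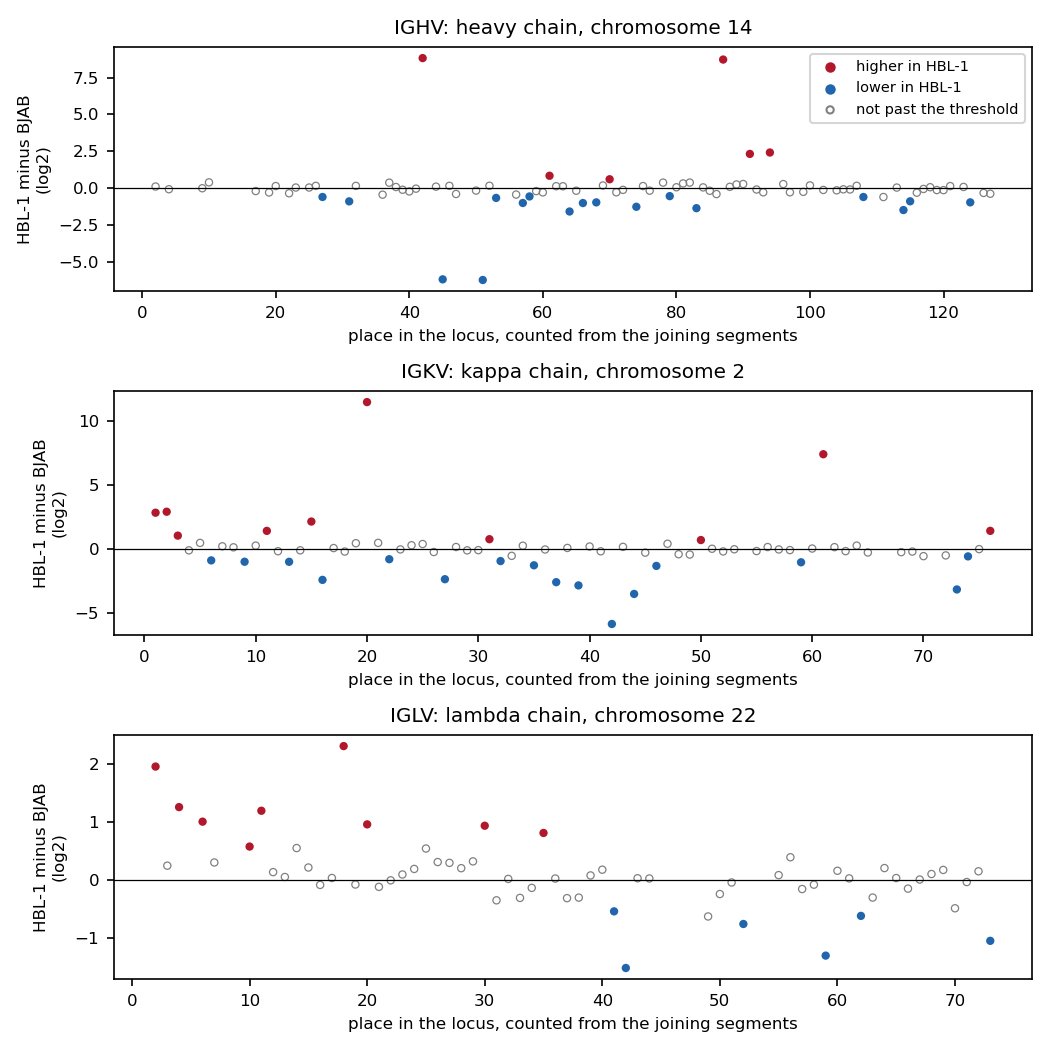
HBL-1 minus BJAB (log2) of the measured segments by their place in each locus, counted in RefSeq order from the joining segments, with 1 panel per locus, 1 point per segment and orphons left out. The lambda calls higher in HBL-1 stand at places 2 to 35 and the lower ones at 41 to 73. The largest kappa and heavy-chain differences stand among called segments as well as segments that were not called. In the kappa locus IGKV1-37 at place 37, IGKV1-39 at 39, IGKV1D-39 at 42 and IGKV1D-37 at 44 were all called lower in HBL-1.

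Other genes of the immunoglobulin loci were measured in part. Of 6 joining-segment symbols with a row of their own, among them the orphon IGLJCOR18, 2 passed, both lower in HBL-1. No diversity segment had such a row. IGHJ3P, a pseudogene among the heavy-chain joining segments, averaged 8.20 ± 0.51 log2 in HBL-1 and 12.32 ± 0.25 in BJAB (SD, n = 4 arrays each, limma adjusted p = 3e-08), and IGLJ2 differed by -0.82. Of 11 constant-region genes HBL-1 was higher in 2 and lower in 3, beside 24.2% of all genes that differed. The IgD constant region IGHD gave 7.48 ± 0.31 log2 in HBL-1, below background, and 9.91 ± 0.12 in BJAB (limma adjusted p = 1.84e-06). IGHA1 (-1.90), IGHG4 (1.41) and IGLC5 (-1.43) passed too, but IGHG4 was above background on no array and IGHA1 on 1 BJAB array only. The lambda constant region IGLC3, above background in both lines, gave 14.15 ± 0.24 in HBL-1 and 13.80 ± 0.26 in BJAB and did not pass (limma adjusted p = 0.164). IGHM and IGKC, the IgM and kappa constant regions, were not analysed here.

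Of 12 genes of V(D)J recombination, whose proteins cut and join the segments, 1 was higher in HBL-1 and 2 were lower, beside 24.2% of all genes that differed: the DNA ligase LIG4 by 1.73 log2, and the end-joining factors PAXX by -1.40 and NHEJ1 by -0.86. The recombinase subunits RAG1 and RAG2 and the polymerase DNTT, which adds bases at the joins, were not above background in either line, with 4.85, 4.53 and 5.11 log2 in HBL-1 and 5.02, 4.14 and 5.21 in BJAB. Of 11 genes of somatic hypermutation and class switching, the later changes of the joined gene, the DNA polymerase POLH was higher in HBL-1 (2.19), the mismatch-repair protein MSH6 (-1.48) and the repair factor TP53BP1 (-0.58) were lower, and 8 did not pass.

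Among 10 factors that drive transcription of immunoglobulin genes HBL-1 was higher in 2 and lower in 4. IRF4, which acts at light-chain enhancers, was higher by 9.58 log2 and SPIB by 1.70, and SPI1 (-2.88), TCF3 (-1.78), EBF1 (-1.43) and IKZF1 (-1.09) were lower. The octamer factor POU2F2 and its coactivator POU2AF1, which act at variable-segment promoters, differed by 0.14 and 0.08 and did not pass. Of 7 partners of the antibody chains 1 was higher and 3 were lower in HBL-1: CD79A by 0.46, JCHAIN, which links IgM and IgA units, by -9.23, the chaperone MZB1 by -2.47, and VPREB3 by -2.14, below background in both lines. Of 6 plasma-cell markers TNFRSF17 (BCMA, a receptor of APRIL) and PRDM1 were higher and JCHAIN and MZB1 lower in HBL-1, and of the 6 B-cell markers BLNK (3.71) and CD79A were higher and MS4A1 (-2.62) was lower. Of 6 epithelial and fibroblast markers EPCAM (1.62), COL1A2 (1.73) and COL1A1 (0.86) were higher and DCN (-6.58) lower in HBL-1, and of the T-cell markers CD3G (-6.30), CD3D (-1.73) and CD3E (-1.09) were lower. EPCAM and CD3D were above background on no array of either line, and CD3E on 2 BJAB arrays only. Beside all of these list counts, 24.2% of all genes differed between the lines, 10.3% higher and 13.9% lower in HBL-1. The part of these lists in the segment values was not tested.

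APRIL changed no variable segment past the threshold. In HBL-1 0 of 257 members passed in limma (background 0.00297% of all genes, 1 gene), with 21 members at an unadjusted p under 0.05, against 8.83% of all genes. In BJAB 0 members passed (background 0% of all genes), with 18 at an unadjusted p under 0.05, against 4.06% of all genes. Averaged over both lines 0 passed (background 0%), with 23 at an unadjusted p under 0.05, against 6.91%. The precision sets what could be seen: 95% confidence intervals reached 0.56 log2 to either side within a line and 0.40 for the average, at the median of the members. None of the genes of the lists above passed in any APRIL comparison.

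The 7 segments that set the lines apart most had intervals of APRIL minus EDA that held 0 in the line that expressed them. In HBL-1 the intervals were -0.27 to 0.64 log2 for IGKV3-20, -0.44 to 0.45 for IGKV3D-20, -0.44 to 0.66 for IGHV4-28 and -0.44 to 0.62 for IGHV4-55. In BJAB they were -0.62 to 0.76 for IGHV3-33, -0.51 to 0.75 for IGHV3-30 and -0.62 to 0.61 for IGKV1D-39. These intervals leave room for a change of up to 0.76 log2 and do not show that the ligands act alike.

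In HBL-1 the members leaned to lower values with APRIL, against the lean of all genes. The median difference was -0.11 log2 for the members and 0.10 for all genes, with 90 members positive and 167 negative. The 2 APRIL and the 2 EDA arrays did not overlap in 106 members, against 36.5% of all genes. Of these 27 were higher with APRIL and 79 lower, while among all genes 25.4% were higher and 11.1% lower. Against the mean of the EDA arrays, the median of the members was -0.12 on APRIL replicate 1 and -0.13 on replicate 2, the array that stands apart, where the median of all genes was 0.02 and 0.18. Without replicate 2 the median was -0.12 for the members and 0.02 for all genes, with 98 members positive and 159 negative. With array medians made equal the members' median was -0.18 and that of all genes 0.03, and with a second quantile normalization they were -0.19 and 0.00. Of the members, 222 lay at or below background on all 8 arrays, and they were not set against equally dim genes. The part of background level in this lean was not tested.

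The HBL-1 members with the smallest p were lower with APRIL. The pseudogene IGHVIII-44 gave 5.98 and 5.87 log2 with APRIL and 6.66 and 6.87 with EDA (-0.84, limma adjusted p = 0.421). The orphon IGHV3OR16-16 gave 5.64 and 5.25 with APRIL and 7.01 and 6.28 with EDA (-1.20, limma adjusted p = 0.426). The pseudogene IGLVVI-25-1 differed by -0.79. All of these values were below background. Among those higher with APRIL, the smallest p-values were those of the orphon IGHV1OR16-1 (0.77), IGKV2-40 (0.62) and the pseudogene IGHV8-51-1 (0.58), and none passed.

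In BJAB the member with the smallest p was IGKV1-37. It gave 8.22 and 7.59 log2 with APRIL and 5.62 and 6.46 with EDA, so that the APRIL arrays were higher without overlap, and 1 of them was above background. The difference was 1.87 log2 (SE 0.30, 95% confidence interval 1.19 to 2.54), with an unadjusted p of 0.000111 and a limma adjusted p of 0.901 over all genes. A second row of the symbol differed by 1.63. Its distal copy IGKV1D-37 gave 8.25 and 7.86 with APRIL and 6.50 and 6.85 with EDA (1.38, interval 0.85 to 1.92, limma adjusted p = 0.901), and the 2 copies are nearly identical, so these are not independent measurements. The orphon IGHV3OR16-13 gave 7.29 and 7.04 with APRIL and 5.82 and 6.19 with EDA (1.16, limma adjusted p = 0.92). Lower with APRIL were IGKV3-20 (-0.77), IGKV3D-7 (-0.84) and IGKV1D-43 (-0.61), all with BJAB values below background. Over the members the median was -0.04 in BJAB and that of all genes 0.00, and the arrays did not overlap in 77 members (30%), against 34.3% of all genes.

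Averaged over both lines, the smallest p-values among members were those of IGKV1-37 (1.27), IGKV1D-37 (0.86) and IGKV1D-12 (0.46) for higher values with APRIL and of IGKV1D-43 (-0.48), IGKV2-4 (-0.47) and IGKV1-6 (-0.50) for lower ones. None passed, with 0.515 as the smallest limma adjusted p. The difference between the APRIL responses of HBL-1 and BJAB passed in 0 members (background 0% of all genes), with 21 at an unadjusted p under 0.05, against 5.63% of all genes. Its smallest p-values were those of IGKV3-20 (0.95), IGKV3D-7 (1.01) and IGHV1OR16-1 (0.84) on the positive side and of IGHV3OR16-13 (-1.62), IGHVIII-82 (-1.17) and IGHV3OR16-16 (-1.40) on the negative side, with 0.843 as the smallest limma adjusted p. The half-width of the interval was 0.79 log2 for this difference, at the median of the members.

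**Figure D4:**
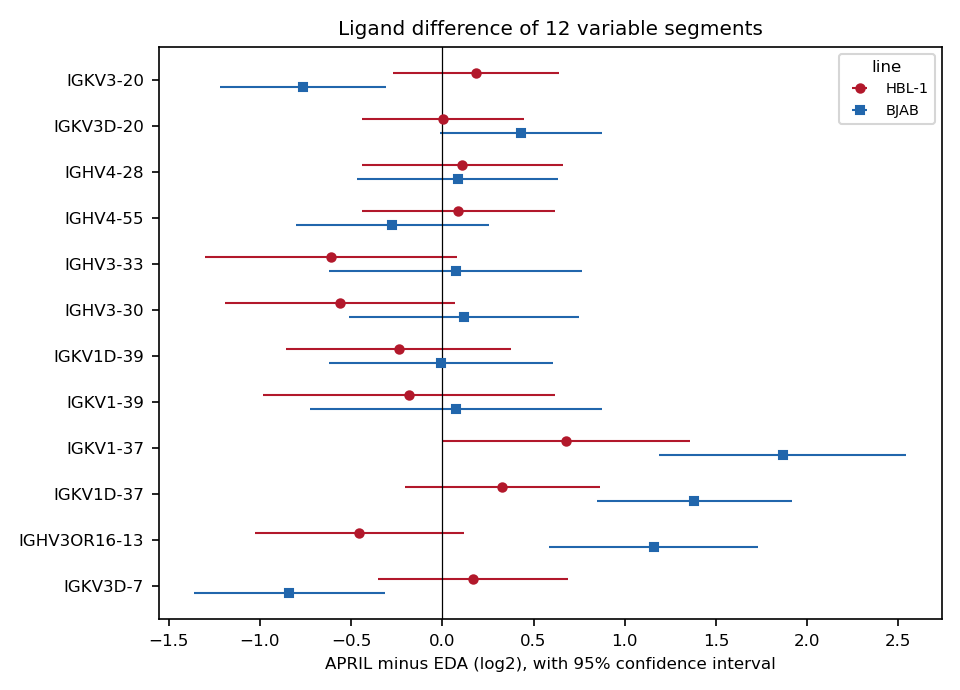
APRIL minus EDA (log2) with its 95% confidence interval from limma for 12 segments, the 8 with the clearest line difference or its copy and 4 with a small p in BJAB, in HBL-1 (circles) and BJAB (squares). The intervals of IGHV4-28, IGHV4-55, IGHV3-33, IGHV3-30, IGKV1D-39 and IGKV1-39 hold 0 in both lines, while those of IGKV1-37, IGKV1D-37 and IGHV3OR16-13 lie above 0 and those of IGKV3D-7 and IGKV3-20 below 0 in BJAB, none with an adjusted p past the threshold.

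Arrays of different lines were less alike over the segments than arrays of 1 line. Pearson's r across the 257 members was 0.966 to 0.974 between the 4 replicate pairs, 0.957 to 0.974 between the 8 pairs of arrays with different ligands in 1 line, and 0.531 to 0.618 between the 16 pairs of arrays from different lines. Across all genes r was 0.942 to 0.946 between lines. These are descriptions across genes that share probe sequence and brightness, and genes are not independent replicates.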

How the data were processed

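Total RNA of HBL-1 and BJAB cells was measured on 8 single-colour Affymetrix arrays. Per the submitters' processing notes, the authors made the deposited log2 signals with RMA and Affymetrix Expression Console, whose versions are not stated. RMA corrects background, normalizes by quantiles and fits probes into 1 value per row, and the genome build is not given in the sources used here, so no coordinates are printed.

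Rows with exactly 1 symbol in the probe annotation were tested, 1 row per symbol, the brightest over all arrays, with no filter on dim genes: 33616 genes from 36176 such rows out of 138745 rows. The 257 variable segments had 284 rows, and 26 symbols had several, whose line differences spread by 0.29 log2 at the median and by 1.74 at most. Among the segments named from several rows, IGKV2-4 and IGKV2-40 had rows of opposite sign for the line difference. In all, 25 kappa members were represented by a row without a chromosome. Segments were matched to the RefSeq gene table, 225 by gene number and 32 by symbol, for type and order. Orphons were told by their symbol.

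Each gene was fitted in limma 3.58.1 (R 4.3.3; lmFit and eBayes) with 1 mean per group over 8 arrays (degrees of freedom: 4 residual, 6.02 prior). Contrasts were HBL-1 minus BJAB averaged over both ligands, APRIL minus EDA in each line and on average, and the difference of the 2 responses. P-values are two-sided and adjusted by Benjamini-Hochberg over all genes, and 0.05 was the threshold. All adjusted p in the text are limma's. Arrays give no read depth, and their number limits the precision. The procedure was tested on simulated data.

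The segments named are the 15 largest differences in each direction between lines that passed without overlap, the 3 smallest p-values in each direction for each APRIL contrast, and up to 4 passing genes of each list (2 where none passed). The others that are named were chosen after their values were seen, to account for subgroups, copies and bright members. Members and lists were chosen with earlier results of these data known.

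Alternatives tested every row, averaged rows, left out dim genes, made array medians equal, normalized by quantiles again, used trend and robust shrinkage or array weights, used the arrays of 1 comparison or 1 ligand alone, added a replicate block and left out each array in turn. A fit on rows mapped to a chromosome was added after the data were seen.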

Additional observations from a re-analysis of the deposited data

Results flagged for a closer look

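In 6 of the 41 segments named by rule the APRIL and the EDA arrays did not overlap in either line, and APRIL was higher in one line and lower in the other. Some of the 41 were named for a small p of this same difference, so the count is no support for it. Among all genes these arrays did not overlap in 36.5% in HBL-1 and in 34.3% in BJAB. The share of all genes with opposite directions was not computed. The test of the difference of the responses, in limma, passed for none of them, with an adjusted p of 0.843 or more. The difference of the APRIL responses (HBL-1 minus BJAB) was 0.95 log2 for IGKV3-20, with APRIL minus EDA at 0.19 in HBL-1 and -0.77 in BJAB, where the segment was below background on every array. It was 1.01 for IGKV3D-7 (0.17 in HBL-1 and -0.84 in BJAB) and 0.46 for IGLV2-18 (0.22 in HBL-1 and -0.24 in BJAB). On the negative side it was -0.78 for IGKV1-27 (-0.70 in HBL-1 and 0.08 in BJAB), -1.62 for the orphon IGHV3OR16-13 (-0.46 in HBL-1 and 1.16 in BJAB) and -1.17 for the pseudogene IGHVIII-82 (-0.48 in HBL-1 and 0.69 in BJAB). In each of the 6 the values of at least 1 line lay below background.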

How the results depend on the processing

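The direction and the call of the segments named by rule held under each alternative they could be computed for (898 of 898 values). Those segments were the 15 largest line differences in each direction and the 3 smallest p-values in each direction of each APRIL contrast. The list genes and the other segments named were not followed through the alternatives. Among the followed segments, the line difference moved by over 1.5 times for IGHV3OR16-13 and IGKV3D-7 under EDA alone (-0.94 and 0.92). It did so for IGKV1-27 with rows averaged too (-1.46). Counts of members higher and lower in HBL-1 were 26 and 44 in the reported fit. With dim genes left out, only 24 members were tested and 8 were higher and 12 lower, and 6398 of all genes passed. That filter keeps a member that is above background in 1 line alone. The large share called among the members kept thus follows in part from the filter and is no support for a line difference. With the replicate block 5368 genes passed, against 8135, with 18 members higher and 27 lower. Deviations between replicates were almost uncorrelated between the ligands of a line (correlation -0.02 in HBL-1 and 0.06 in BJAB). This does not settle whether the replicate numbers pair the arrays. Under EDA alone 19 members were higher and 26 lower, with fewer arrays. Leaving out each array in turn gave 6654 to 7833 genes, 21 to 24 members higher and 35 to 42 lower. For APRIL minus EDA in HBL-1 the 1 gene that passed, no variable segment, became 0 with every row tested, dim genes left out, array weights, the arrays of the comparison alone, the replicate block and each HBL-1 array left out (0 to 0). For the average over both lines 0 genes became 1 with trend and robust shrinkage. The cause of these changes in the APRIL counts was not tested. Members passed in no APRIL comparison under any alternative. Signal limits the rest: 222 of 257 members were at or below background on all 8 arrays.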

Other observations

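A further 12 rows carry several symbols, among them a variable segment, and entered no comparison. Of these, 3 differed between the lines by at least 2 log2 and 8 by less than 1. The row with 7 symbols given above for the lambda chain differed by -0.03. A row on chromosome 2 with 2 symbols averaged 15.04 ± 0.11 log2 in HBL-1 and 7.71 ± 0.42 in BJAB (SD, n = 4 arrays each), a difference of 7.33. A row on chromosome 2 with 19 symbols averaged 18.93 ± 0.05 in HBL-1 and 16.78 ± 0.10 in BJAB (2.16). A row on chromosome 14 with 2 symbols averaged 5.67 ± 0.15 in HBL-1 and 7.89 ± 0.27 in BJAB (-2.22), and a row on chromosome 22 with 3 symbols averaged 9.20 ± 0.42 in HBL-1 and 11.12 ± 0.29 in BJAB (-1.92). No symbol was assigned to these rows.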
